A study of Brassica napus with 6 samples.

Results

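The rapeseed (Brassica napus) genes described here have no Arabidopsis locus in the authors' deposited table and had reads in the silique walls of 1 pool of accessions with almost none in the other. RNA of the silique wall, which encloses the seeds of the pod, was sequenced 15 days after flowering in a long-silique pool that mixed 12 accessions (3 libraries) and a short-silique pool that mixed 11 accessions (3 libraries). All plants were lines of an association population, and no treatment is named for either pool. Equal amounts of tissue were mixed, so a value is that of a pool and not of any accession, and the labels do not say whether the libraries stem from different plants, so their spread may be technical. The genes, called members here, were selected on their read counts, with a minimum of 10 in each of the 3 libraries of 1 pool and a sum of no more than 3 over the opposite pool. The rule found 107 of the 3248 genes in the table, of 1135 genes without a locus. Of these 107, 15 met the rule in the long pool (long-only) and 92 in the short pool (short-only). Because these counts chose the members, the contrast between the pools is given as a description without a test.

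Brassica napus is an allopolyploid that carries the A genome of Brassica rapa and the C genome of Brassica oleracea. An annotated gene is tied to an Arabidopsis locus by likeness, and genes without such a tie are known to include short and fast-changing genes, lineage-restricted genes, gene fragments and pieces of transposable elements. Whether such a gene is present at all is known to vary between accessions of a crop. Which of these applies to a member was not tested. In bulk tissue, fewer cells of a type and less RNA per cell cannot be told apart. No gene name was found in the RefSeq table (0 matches), so positions and names are those of the deposited table, which follows the Darmor reference.

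The table lists only genes that the authors called different, so genes without a call, silique wall markers among them, were not analysed here. The recovered library totals were between 22892442 and 30259269 reads in the long libraries and between 25483275 and 29256555 reads in the short libraries. All members together had 629 to 645 counts per long library and 3755 to 4490 counts per short library. As a background for the counts of members, 0.924% of all listed genes met the rule for the long pool and 3.97% met the rule for the short pool. Among the listed genes without a locus the shares were 1.32% (long only) and 8.11% (short only), and among those with a locus 0.710% (long only) and 1.75% (short only). The rule used this contrast, and nothing is read from these shares.

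**Figure D1:**
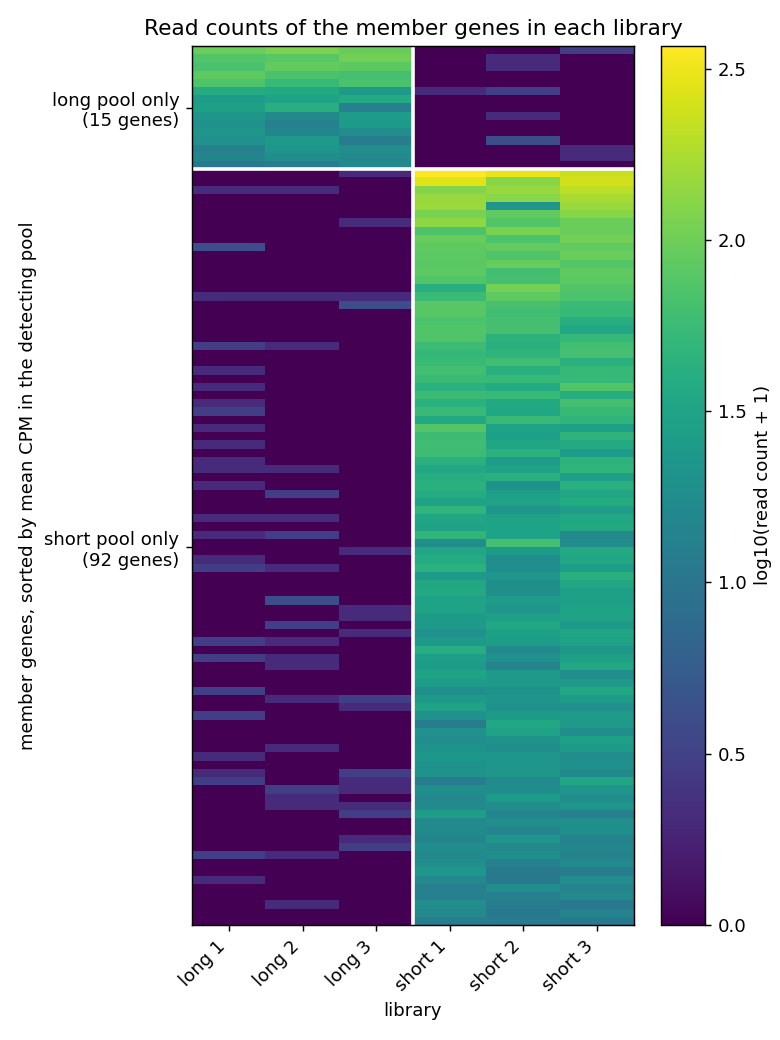
Heat map of read counts, as log10(count + 1), of the 107 members (rows, sorted by mean level in the detecting pool) in each of the 3 long and 3 short libraries (columns). The upper block holds the 15 genes of the long pool and the lower block the 92 genes of the short pool. In the opposite blocks no gene exceeds 3 counts in total, as the rule requires.

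The label was checked against the deposited texts, and it holds for the locus column only. All 107 members carry an empty placeholder there. Yet 17 of them have a database text that spells out Arabidopsis thaliana, and so do 11 of the 18 Swiss-Prot names of members. Both are minimum counts, because some deposited texts are cut off. The names of BnaA07g19490D and BnaC04g05590D, for example, end within the species. A text from the NR protein database was given for 50 members. It named Eutrema salsugineum in 18 cases, Brassica oleracea in 9, Arabidopsis thaliana in 7, Arabidopsis lyrata in 6 and Capsella rubella in 5. These species are all of the mustard family. Outside this family, 1 text named Vitis vinifera and 1, that of BnaC03g09780D, named Trichuris suis. The NR text is that of a "hypothetical protein" in 37 of the 50. No description of any kind was given for 54 of the 107 members, and 53 had one. That is 49.5% with a description, against 65.3% of the 1028 other listed genes without a locus and 98.1% of the 52 genes with a locus that met the same count rule. A Swiss-Prot name was given for 16.8% of members, against 41.9% of the other genes without a locus. These shares were not tested.

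Levels were low in both directions. On the CPM scale, which divides counts by the library total, the 15 long-only members averaged 0.469 to 3.84 CPM in the long pool with a median of 0.978, and the 92 short-only members averaged 0.392 to 11.1 CPM in the short pool with a median of 1.13. A mean below 1 CPM was found for 8 of the 15 and 40 of the 92. The sums over the 3 libraries were 36 to 302 counts for long-only members and 32 to 903 counts for short-only members. For comparison, 10 counts in a library correspond to between 0.330 and 0.437 CPM, so the weakest members lie at the limit of the rule. Per length, in the authors' FPKM, the median of the member means was 2.01 (quartiles 1.24 and 3.53). It was 1.17 for the 52 genes with a locus that met the count rule, and 2.01 in the higher pool for the 1028 other genes without a locus. The highest member mean was 24.9 FPKM, against 263 FPKM among those 1028 genes.

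**Figure D2:**
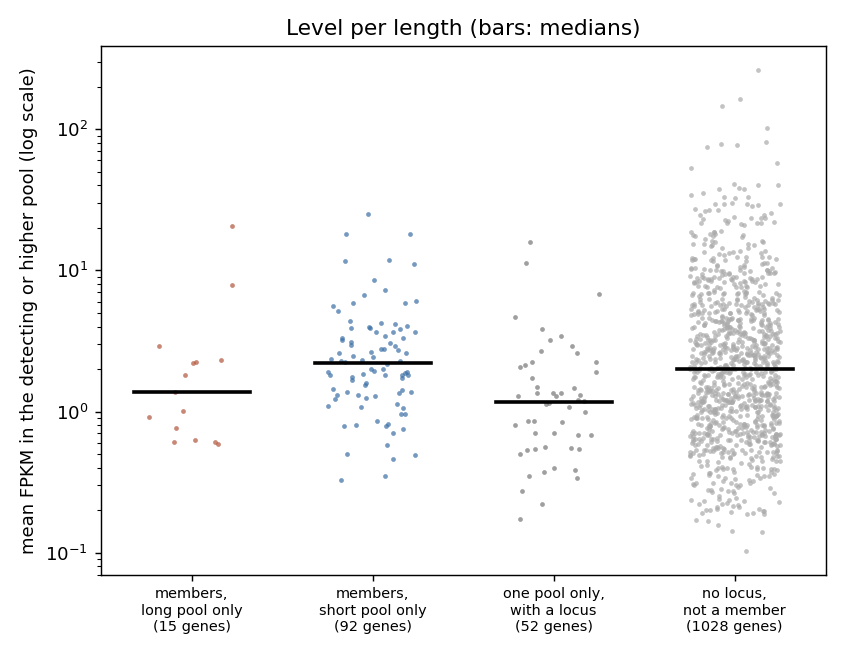
Mean FPKM over the 3 libraries of the detecting pool (members and genes with a locus that met the rule) or of the higher pool (other genes without a locus), on a log axis, with bars at the medians. Points are genes. The 15 long-only members have a median of 1.37 and the 92 short-only members one of 2.21, while genes outside the rule reach 263 FPKM.

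In the opposite pool, 7 of the 15 long-only members had 0 counts in all short libraries and 45 of the 92 short-only members had 0 counts in all long libraries. Measured against a floor of 3 counts over the 3 libraries of the opposite pool, the 7 were at least 12.5-fold to at least 74.4-fold higher in the long pool. The 45 were at least 10.3-fold to at least 211-fold lower in the long pool. These bounds grow with a gene's own reads, so a low bound marks a weakly covered gene. Members with 1 to 3 counts in the opposite pool have ratios with wide intervals. For the rest of the short-only members, 22 had 1 count in the long libraries, 11 had 2 and 14 had 3.

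Of the 8 long-only members with the highest CPM, 7 have no description. BnaA03g47420D (A03, 24313793 to 24315959), described as a hypothetical protein of Eutrema, had 96, 114 and 92 counts in the long libraries, against 0, 0 and 2 counts in the short libraries. BnaC03g41010D (C03, 25960137 to 25960756) had 73, 79 and 104 counts in the long libraries, against 0, 1 and 0 in the short libraries. BnaA09g57190D (A09_random, 4068261 to 4069417) had 66, 88 and 83 counts in the long libraries, against 0, 1 and 0 in the short libraries. These 3 genes stood at 3.84 ± 0.157, 3.33 ± 1.06 and 3.03 ± 0.541 CPM in the long pool (SD, n = 3), in this order. The rule itself keeps the pools of every member from overlapping. Their ratios of long over short, from summed counts, were 157 (95% exact counting interval 43.0 to 1300), 266 (47.3 to 10532) and 246 (43.7 to 9754).

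BnaA07g08050D (A07, 8220668 to 8221763) had 84, 67 and 64 counts in the long libraries, against 0 in every short library, and was at least 74.4-fold higher in the long pool. BnaA07g33950D (A07, 23196172 to 23197980) had 72, 52 and 67 counts in the long libraries, against 0 in every short library, and was at least 66.1-fold higher. BnaC08g19790D (C08, 22599563 to 22600212) had 25, 30 and 36 counts in the long libraries, against 0 in every short library. None of these 3 genes has a description, and for each of them the short libraries held no read. BnaC02g26790D (C02, 24609718 to 24612463) had 37, 35 and 24 counts in the long libraries, against 1, 2 and 0 in the short libraries. BnaA02g30860D (A02, 22264650 to 22266080) had 28, 40 and 12 counts in the long libraries, against 0 in every short library. The third long library was the low one for BnaA02g30860D, and its count of 12 is close to the limit of the rule.

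Only 4 long-only members fell outside the unknown classes of the annotation keywords. BnaAnng22100D (Ann_random, 24631618 to 24634753), described as an alpha tubulin, a subunit of microtubules, had 10, 11 and 15 counts in the long libraries, against 0 in every short library. BnaC03g67430D (C03, 57107423 to 57108990), described as HDG7, a homeodomain-leucine zipper transcription factor, had 14, 17 and 15 counts in the long libraries, against 0, 0 and 1 in the short libraries. BnaA03g49530D (A03, 25572762 to 25573970), described as an F-box/kelch-repeat protein, a class that picks targets for ubiquitin ligases, had 19, 12 and 24 counts in the long libraries, against 0 in every short library. All 3 were weakly covered, at 0.469 ± 0.162, 0.587 ± 0.0597 and 0.728 ± 0.326 CPM in the long pool (SD, n = 3). BnaA09g09590D (A09, 4798184 to 4799442), described only as ORF-a of Brassica rapa, had 19, 23 and 11 counts in the long libraries, against 0, 3 and 0 in the short libraries.

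Among members detected in the short pool, BnaA04g05080D (A04, 3739133 to 3739657) stood highest on both scales. This gene without a description had 0, 0 and 1 counts in the long libraries, against 369, 306 and 228 counts in the short libraries, or 11.1 ± 3.09 CPM and 24.9 ± 6.91 FPKM in the short pool (SD, n = 3). Its ratio of short over long was 870 (95% exact counting interval 156 to 34411). BnaCnng60080D (Cnn_random, 59902817 to 59903346), also without a description, had 0 counts in every long library, against 279, 129 and 249 counts in the short libraries, and was at least 211-fold lower in the long pool. BnaC03g15140D (C03, 7487746 to 7489266) had 1, 1 and 0 counts in the long libraries, against 122, 147 and 202 counts in the short libraries. BnaA04g27640D (A04_random, 191062 to 193359) had 0 counts in every long library, against 148, 129 and 169 counts in the short libraries. These were the 4 short-only members above 5 CPM, and none of them has a text that says what the protein is.

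The next members by CPM were likewise unnamed. BnaA01g22470D (A01, 14837660 to 14838671) had 0 counts in every long library, against 150, 21 and 150 counts in the short libraries. Its second short library was far below the others, an 8.20-fold range in CPM, the widest among the 107 members. BnaA09g16480D (A09, 9845328 to 9847732) had 0 counts in every long library, against 111, 87 and 127 counts in the short libraries. BnaAnng28390D (Ann_random, 32423233 to 32425509) had 0, 0 and 1 counts in the long libraries, against 135, 73 and 98 counts in the short libraries. BnaCnng25160D (Cnn_random, 23672317 to 23676751) had 0 counts in every long library, against 70, 112 and 98 counts in the short libraries. All 4 genes had at least 21 counts in each short library, well clear of the limit of 10.

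Of the short-only members, 18 had an annotation keyword or another text outside the unknown classes, which for BnaCnng20320D is no more than "putative protein". The enzymes were 4. BnaC02g02380D (C02, 1057379 to 1057881), described as a probable chalcone isomerase 3, a relative of an enzyme of flavonoid synthesis, had 0 counts in every long library, against 69, 64 and 39 counts in the short libraries. BnaA07g19490D (A07, 15560618 to 15562254), described as serine hydroxymethyltransferase 7, of a family that links serine and folate metabolism, had 0 counts in every long library, against 35, 18 and 28 counts in the short libraries. BnaA02g26330D (A02, 19424925 to 19426710), described as prolyl 4-hydroxylase 1, of a family that modifies proline in wall and other proteins, had 0 counts in every long library, against 39, 15 and 22 counts in the short libraries. The KEGG name of BnaA07g19490D is that of another enzyme, the rRNA methyltransferase MRM1. In BnaA07g19490D and BnaA02g26330D the second short library was the lowest, and in BnaC02g02380D the third. BnaCnng25270D (Cnn_random, 23818974 to 23820264), described as methionine aminopeptidase 2B, which trims the starting methionine from proteins, had 0, 1 and 0 counts in the long libraries, against 16, 24 and 17 counts in the short libraries.

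A kinase and a kinase subunit were among the named members. BnaAnng25790D (Ann_random, 29831413 to 29834736), described as the chloroplast protein kinase 2B, had 0 counts in every long library, against 73, 63 and 82 counts in the short libraries. BnaC08g05280D (C08, 6819175 to 6819937), described as the beta-2 subunit of the SNF1-related kinase, an energy sensor, had 1, 1 and 0 counts in the long libraries, against 32, 29 and 34 counts in the short libraries. In the ubiquitin class, BnaA09g40770D (A09, 28597044 to 28599214), described as a Cue protein of the ubiquitin system, had 0, 0 and 1 counts in the long libraries, against 31, 24 and 36 counts in the short libraries. Over the short libraries these 3 genes spread 1.27-fold to 1.62-fold in CPM, against a median of 1.58-fold for the short-only members. BnaC04g05590D (C04, 3955289 to 3955761), described as the ubiquitin ligase HOS1, a regulator of cold responses and flowering in Arabidopsis, had 0, 1 and 1 counts in the long libraries, against 15, 17 and 22 counts in the short libraries.

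The other described members had varied texts. BnaA01g20330D (A01, 12165496 to 12167505), described as a pentatricopeptide repeat protein, a family that binds organelle RNA, had 0 counts in every long library, against 17, 62 and 17 counts in the short libraries. Here the second short library was the high one, 3.38-fold above the lowest in CPM. BnaC03g09780D (C03, 4705279 to 4705851), described as a glycine-rich RNA-binding protein, had 0 counts in every long library, against 16, 17 and 17 counts in the short libraries. BnaC01g37920D (C01, 37094781 to 37095642), described as the chloroplast ribosomal protein S10, had 0 counts in every long library, against 12, 17 and 13 counts in the short libraries. BnaA05g24550D (A05, 18321523 to 18325106), described as an uncharacterized mitochondrial protein, had 1, 0 and 0 counts in the long libraries, against 22, 22 and 17 counts in the short libraries. These 3 genes averaged 0.612, 0.510 and 0.747 CPM in the short pool, in this order.

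BnaC05g33460D (C05, 33002553 to 33004165), described as a homolog of the dehydration-induced protein DI19, had 2, 1 and 0 counts in the long libraries, against 23, 26 and 29 counts in the short libraries. BnaUnng02470D (Unn_random, 3485299 to 3486657), described as a calmodulin-binding protein, had 0 counts in every long library, against 29, 30 and 35 counts in the short libraries. BnaC07g00020D (C07, 225355 to 227941), described as a putative protein with the KEGG name of the DNA helicase PIF1, had 0 counts in every long library, against 23, 21 and 42 counts in the short libraries. PIF1 helicases are known to unwind DNA. A further 3 members had a Swiss-Prot name outside the keywords and were picked out after their values were seen. BnaC02g24970D, described as FIT, a regulator of iron uptake in Arabidopsis roots, had 1, 0 and 2 counts in the long libraries, against 20, 22 and 16 counts in the short libraries. BnaC04g22580D, described as GATA transcription factor 25, had 0 counts in every long library, against 17, 20 and 27 counts in the short libraries. BnaAnng31130D, described as a probable inactive poly [ADP-ribose] protein, had 0 counts in every long library, against 82, 61 and 85 counts in the short libraries. By keyword, enzymes were 3.74% of members, against 17.4% of the other genes without a locus. A description was given for 49.5% of members and 65.3% of those other genes, so the enzyme shares are not on a like footing. Words for transposons or retroelements were found in 0 of the 107 members and in 11 (1.07%) of the 1028 other genes without a locus. The 54 members without a text could match no keyword, and KEGG names were not searched. The 0 therefore does not show that such members are absent.

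Some texts recurred. The text "hypothetical protein 27.t00116" of Brassica oleracea was given to 24 listed genes, 3 of them members, and it occurred in both directions. BnaC08g24000D of this group had 21, 14 and 17 counts in the long libraries, against 0 in every short library. BnaA09g16480D, given above, and BnaUnng04840D, with 0 counts in every long library, against 57, 44 and 25 counts in the short libraries, had the opposite pattern. Of the 21 non-members with this text, the authors' deposited table has 11 as higher in the long pool and 10 as lower. So genes with 1 shared text were detected in different pools. The text "hypothetical protein EUTSA_v10002234mg" of Eutrema was given to 10 listed genes, among them the short-only members BnaA05g16870D, BnaA09g19410D and BnaC05g37010D. Of its 7 non-members, the authors' deposited table has 1 as higher in the long pool and 6 as lower. The KEGG name of replication protein A1, which binds single-stranded DNA, was given to 9 listed genes, among them the short-only members BnaA03g54750D, BnaA04g05630D and BnaAnng15890D, and 2 of its 6 non-members were higher. In plants, Helitron transposons are known to carry relatives of replication protein A. Whether these 3 members belong to such elements was not tested. BnaA03g54750D (A03, 29722068 to 29724770) had 2, 1 and 0 counts in the long libraries, against 26, 19 and 28 counts in the short libraries. Reads of near-identical copies may be lost, because uniquely mapped reads were counted, or may be placed on the wrong copy. The values of genes of such families are therefore uncertain.

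Members were small gene models, as were the other listed genes without a locus. Their genomic span had a median of 1246 bases (quartiles 672.5 and 1768.5), against 1214.5 bases for the other genes without a locus, 1522.5 bases for genes with a locus that met the count rule, and 1466.5 bases for all 3248 listed genes. The long-only members had a median of 1259 bases and the short-only members one of 1228 bases. The shortest, BnaCnng71450D (Cnn_random, 71696849 to 71697037), spans 189 bases and had 0, 1 and 0 counts in the long libraries, against 20, 18 and 24 counts in the short libraries. The longest, BnaAnng15890D (Ann_random, 16831773 to 16838956), spans 7184 bases and had 0 counts in every long library, against 53, 52 and 50 counts in the short libraries. Both extremes were thus short-only genes with similar values in the 3 short libraries.

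The transcript length that the authors used can be read back from count, FPKM and library total. For members it had a median of 575 bases (quartiles 368 and 930), against 704 bases for the other genes without a locus, 1076 bases for genes with a locus that met the rule, and 929 bases for all listed genes. Span and transcript length therefore order the members differently against the other genes without a locus. The median share of the span taken up by transcript was 60.3% for members and 65.6% for the other genes without a locus. For 17 of the 107 members (15.9%) the length was above 97% of the span, as for a gene without introns, against 18.3% of all listed genes. A length below 300 bases was found for 16 members, or 15.0%, against 17.6% of the other genes without a locus and 1.92% of the genes with a locus that met the rule. BnaC02g02380D, the chalcone isomerase 3 relative, has the shortest transcript, 117 bases in a span of 503. BnaA09g57190D has 147 bases in a span of 1157, and its 20.6 ± 3.68 FPKM in the long pool (SD, n = 3), the highest of the long-only members, rests on that short length, whereas 2 long-only members had more CPM.

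**Figure D3:**
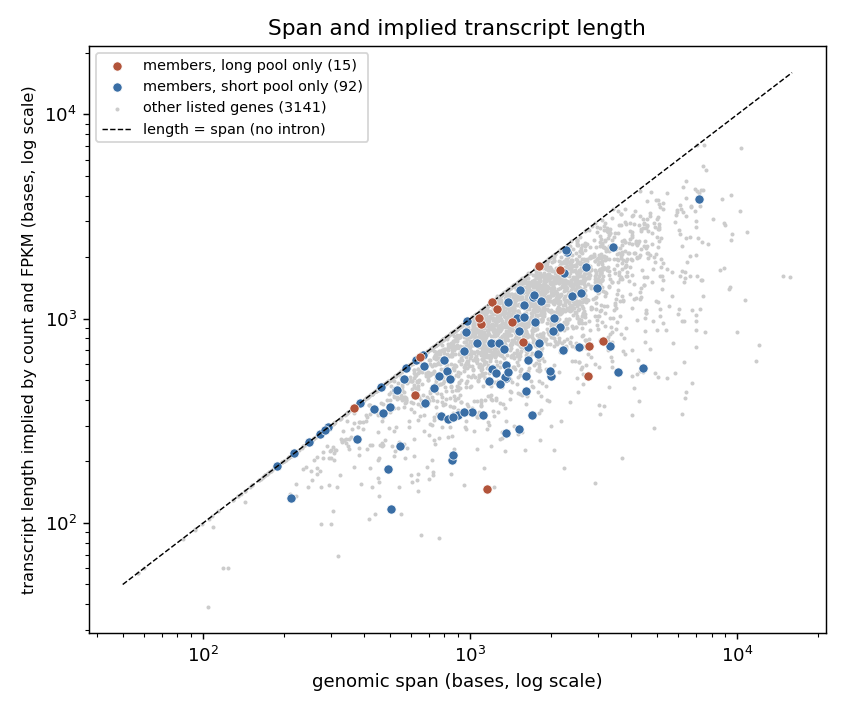
Transcript length implied by count and FPKM (vertical, bases) against genomic span (horizontal, bases), both on log axes, for the long-only members, the short-only members and the other listed genes. The dashed line marks equal length and span. Members lie within the cloud of other genes, from a span of 189 to one of 7184 bases, with 17 of 107 close to the line.

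Members were spread over the genome. They lay on 9 of the 10 A chromosomes (32 members) and on all 9 C chromosomes (42 members), and 33 lay on random or unplaced scaffold sets. The share on random or unplaced sets was 30.8%, against 24.2% of the other genes without a locus, 9.62% of the genes with a locus that met the rule and 20.7% of all listed genes. By name, 44 members belong to the A subgenome, 59 to the C subgenome and 4 to neither. Among the long-only members 8 were A and 7 C, and among the short-only members 36 were A and 52 C. The largest counts were 14 on Cnn_random, 9 on Ann_random, 8 on C03 and 7 on C08. Chromosome A08 held 0 members among its 68 listed genes, although 1 lay on A08_random. None of these shares was tested, since members that neighbour each other are not independent.

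**Figure D4:**
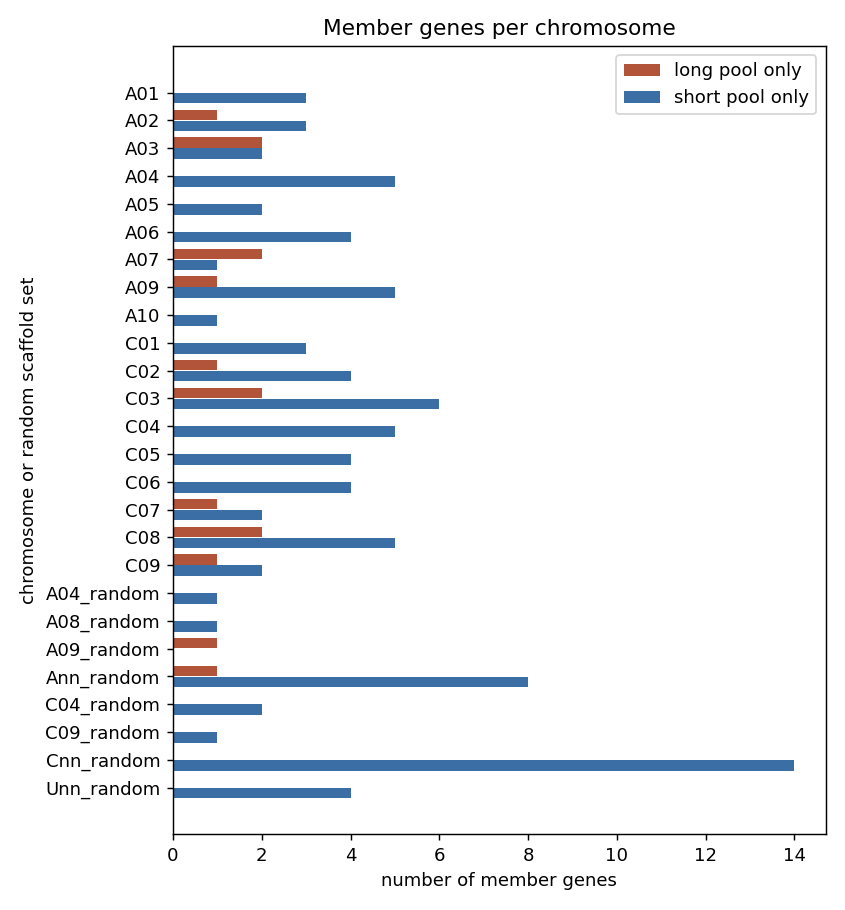
Number of members detected in the long pool only (upper bar of each row) and in the short pool only (lower bar) per chromosome or random scaffold set; sets without members are left out. The largest bar is that of the 14 short-only members on Cnn_random, and no row has more than 2 long-only members.

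Neighbouring members were found in 7 places, where members lay within 100 kb of each other, and all 15 genes involved were short-only. On C04, BnaC04g19670D (20400028 to 20400312) and BnaC04g19680D (20400377 to 20402432) are 64 bases apart. BnaC04g19670D had 0, 2 and 0 counts in the long libraries, against 23, 34 and 23 counts in the short libraries, and BnaC04g19680D had 2, 0 and 0 counts in the long libraries, against 19, 24 and 25 counts in the short libraries. On C08, BnaC08g21710D (24477096 to 24477532) and BnaC08g21720D (24477613 to 24478889) are 80 bases apart. BnaC08g21710D had 1, 0 and 0 counts in the long libraries, against 42, 25 and 45 counts in the short libraries, and BnaC08g21720D had 0 counts in every long library, against 55, 51 and 39 counts in the short libraries. Neither model of these pairs exceeded 2 counts in a long library. Beside the C08 pair lie the listed non-members BnaC08g21700D, 56 bases from BnaC08g21710D, and BnaC08g21690D, 279 bases from it. Both had 0 counts in every long library. In the short libraries BnaC08g21700D had 8, 6 and 10 counts and BnaC08g21690D had 7, 6 and 8. Whether such close models are pieces of 1 transcript was not tested.

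On Cnn_random, BnaCnng60080D, given above, is 82 bases from BnaCnng60090D (59903429 to 59904793), which had 0 counts in every long library, against 71, 44 and 50 counts in the short libraries. On the other side, 241 bases from BnaCnng60080D, lies the non-member BnaCnng60070D, which has an Arabidopsis locus. It had 0, 0 and 1 counts in the long libraries, against 36, 9 and 19 counts in the short libraries. Its NR text is the same as that of BnaCnng60090D. On the same set BnaCnng20300D (19072985 to 19075545) had 0 counts in every long library, against 81, 92 and 75 counts in the short libraries, and BnaCnng20310D (19084097 to 19084826), 8551 bases on, had 0 counts in every long library, against 25, 23 and 23 counts in the short libraries. BnaCnng20320D (19084984 to 19087234), a further 157 bases on and described as a putative protein, had 0 counts in every long library, against 47, 21 and 26 counts in the short libraries. This is the only run of 3 consecutive models that are all members. On C01, BnaC01g16090D (11108510 to 11109053) had 0, 2 and 1 counts in the long libraries, against 18, 18 and 21 counts in the short libraries. BnaC01g16100D (11109298 to 11110139), 244 bases on and given the KEGG name PRL1, a splicing-associated protein, had 2, 0 and 0 counts in the long libraries, against 18, 20 and 33 counts in the short libraries. On Ann_random, BnaAnng15900D (16843818 to 16845063) lies 4861 bases from the longest member and had 2, 0 and 1 counts in the long libraries, against 11, 15 and 32 counts in the short libraries. The C03 neighbours, BnaC03g15040D (7393756 to 7393974), with 0 counts in every long library, against 19, 29 and 18 counts in the short libraries, and BnaC03g15140D, are 93771 bases apart with 9 gene models between them. In the other 6 places no model lies between the members. A random set joins scaffolds, so distance on it need not be distance on a chromosome.

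**Figure D5:**
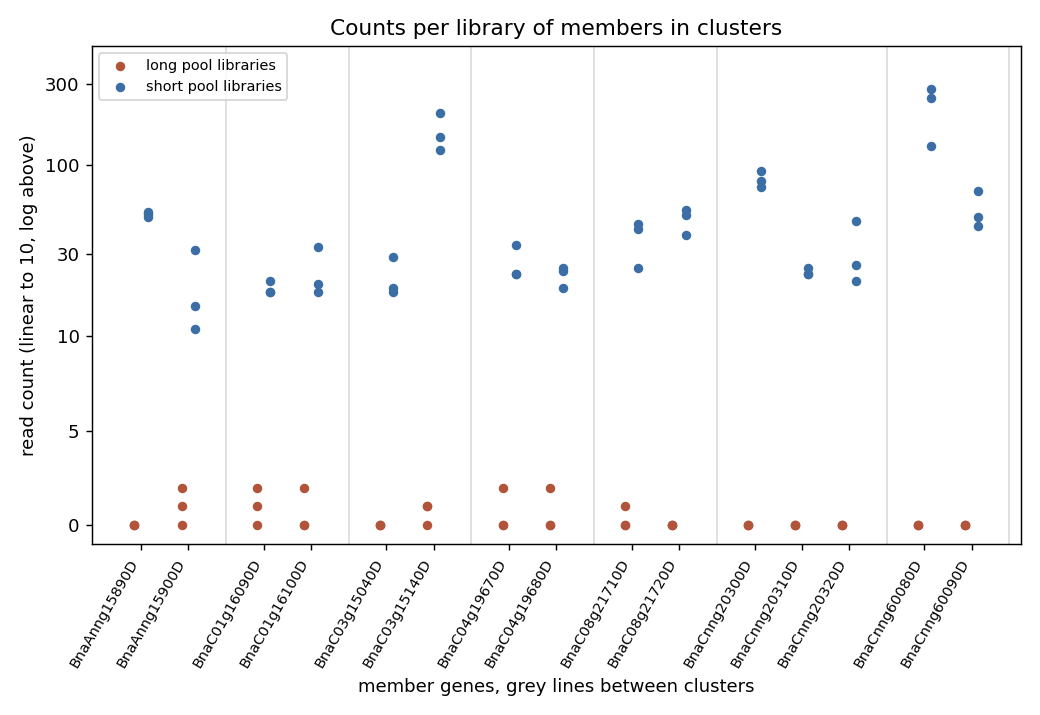
Read counts of the 15 members that lie within 100 kb of another member, 1 point per library, long libraries left and short libraries right of each gene; grey lines separate the 7 places, and the axis is linear to 10 and logarithmic above. Every short library has at least 11 counts for every gene shown and no long library has more than 2.

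The rule did not choose the gene models next to a member, although their calls come from the same contrast in the same libraries. For 26 of the 107 members (24.3%) the next model up or down is also in the table, against 17.7% of the other genes without a locus and 9.62% of the genes with a locus that met the rule. All 26 were short-only. They had 17 non-member neighbours, 15 of which were lower in the long pool in the authors' deposited table, like the member beside them, and 2 higher. Of the 17, 10 lay within 500 bases of a member, and 9 of these went the same way as that member. Whether such close models are pieces of 1 transcript was not tested. Over all listed genes, 65.6% were lower in the long pool. Of the 5 non-member neighbours within 100 bases of a member, BnaC03g57880D, described as a Ulp1 protease family protein, had 0 counts in every long library, against 33, 31 and 48 counts in the short libraries. It lies 65 bases from BnaC03g57890D, with 0 counts in every long library, against 16, 14 and 18 counts in the short libraries. Next to BnaA05g16870D lies BnaA05g16860D, a copy of the light-stress gene ELIP1, 1388 bases away, with 9, 7 and 19 counts in the long libraries, against 704, 835 and 1086 counts in the short libraries. BnaA05g16870D itself had 0 counts in every long library, against 29, 29 and 38 counts in the short libraries. Next to BnaA04g05630D, with 0 counts in every long library, against 50, 46 and 62 counts in the short libraries, lies a copy of PHF1, which helps phosphate transporters reach the cell surface. That copy, BnaA04g05640D, is 1711 bases away and had 6, 11 and 4 counts in the long libraries, against 507, 441 and 575 counts in the short libraries. On its other side BnaA04g05630D adjoins BnaA04g05620D, described as a quinone reductase family protein and 8115 bases away, with 57, 63 and 54 counts in the long libraries, against 17, 16 and 45 counts in the short libraries. This is 1 of the 2 neighbours that were higher in the long pool, so the models on the 2 sides of BnaA04g05630D went opposite ways.

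Wider neighbourhoods were counted for members on placed chromosomes. Of the 68 non-members within 100 kb of a short-only member, 63.2% were lower in the long pool, against 63.9% of the 2502 placed non-members. Of the 15 non-members within 100 kb of a long-only member, 53.3% were higher, against 36.1% of the placed non-members. Within 500 kb the shares were 60.3% lower of 232 and 46.7% higher of 60. These sets leave out random scaffolds and include next models on placed chromosomes, so they are not set against the 17 next models, and none of the shares was tested.

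The rule asked for at least 10 counts in each library of the detecting pool, so genes with a very low library there were left out beforehand. Among the members that remained, these libraries mostly lay close together. The highest library was less than 2-fold above the lowest, in CPM, for 12 of the 15 long-only members and 67 of the 92 short-only members. It was more than 3-fold above for 0 of the 15 and 3 of the 92, which were BnaA01g22470D, BnaA01g20330D and BnaCnng30340D, with 47, 30 and 15 counts in the short libraries. The second short library was the lowest for 57 of the 92 short-only members (62.0%). Among 1593 non-members that were lower in the long pool and had at least 10 counts in every short library, it was the lowest for 33.3%. Median levels of the short-only members were 1.31, 0.923 and 1.18 CPM in short libraries 1, 2 and 3. Median levels of the long-only members were 0.972, 0.991 and 1.05 CPM in long libraries 1, 2 and 3. The part of this library in the results was not tested beyond leaving it out.

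The rule was also applied to 5 libraries and the count read in the sixth. The sixth library is not independent, because the authors' calls, which decide what the table lists, come from the same contrast. Leaving out long library 1, 2 or 3 selected 18, 19 and 30 long-only genes, with medians of 21.5, 21 and 10 counts in the left-out library. Of these, 15 had at least 10 counts there. They are the members by construction, so this number shows no replication. Leaving out short library 1, 2 or 3 selected 122, 114 and 106 short-only genes, with medians of 23.5, 21.5 and 27.5 counts in the left-out library. Of these, 92 had at least 10 counts there, again the members by construction, and 3, 0 and 0 genes had no read. In the opposite pool, the left-out long library held 0 counts for 66 of 111, 72 of 106 and 75 of 111 short-only genes. The left-out short library held 0 counts for 14 of 23, 10 of 27 and 12 of 26 long-only genes. The highest counts in the left-out library of the opposite pool were 8, 23 and 9 in long libraries 1, 2 and 3. They were 12, 17 and 8 in short libraries 1, 2 and 3. Leaving out a library drops a condition of the rule, so the number of genes could only stay or rise. In proportion the long-only genes rose most. There were 30 without long library 3, and 23, 27 and 26 without short library 1, 2 and 3, against 15 with all libraries. Without short library 2 the genes with a neighbouring member were 26, against 15.

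Genes just outside the limits differ from those just inside by a few counts. Inside, 5 long-only and 11 short-only members had a lowest count of 10 to 12, such as BnaA04g04940D with 0 counts in every long library, against 11, 11 and 10 counts in the short libraries. Outside, 10 and 27 genes without a locus had a lowest count of 8 or 9 and at most 3 counts in the opposite pool. One of these is BnaC03g48190D, with 0 counts in every long library, against 40, 9 and 36 counts in the short libraries. With 4 or 5 counts in the opposite pool, 7 and 15 genes missed the rule. BnaA04g06410D, with 0, 2 and 3 counts in the long libraries, against 127, 91 and 128 counts in the short libraries, is among them.

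Genes of other tissues were looked for, since seeds and remnants of flowers adjoin the wall. By text or locus, 11 listed genes matched a seed list and 9 a list of petal, stamen and pollen genes, and 0 members were on either. A match by words does not make a gene specific to a tissue. The seed list took in a non-specific lipid-transfer protein, BnaA09g52860D, and the flower list a profilin, BnaC01g16390D. Sums over these lists are therefore not a measure of seed or flower tissue. Members have no locus and 54 have no text, so few could have matched. Summed over the seed list, levels were 16.6, 15.9 and 19.3 CPM in the long libraries, against 26.9, 24.2 and 24.7 CPM in the short libraries, with 3 genes higher and 8 lower in the long pool. Summed over the flower list, levels were 13.3, 13.3 and 15.6 CPM in the long libraries, against 25.7, 22.4 and 27.7 CPM in the short libraries, with 3 genes higher and 6 lower. Both sums were lower in the long pool, and single genes carried much of this. Over all listed genes, 65.6% were lower in the long pool. All listed genes together took 0.897% to 0.924% of the recovered totals in the long libraries, against 1.13% to 1.19% in the short libraries. The pollen allergen-like exopolygalacturonase BnaA07g02370D had 0, 3 and 0 counts in the long libraries, against 209, 193 and 272 counts in the short libraries. The seed storage protein gene BnaA09g50780D, a cruciferin, had 1, 2 and 0 counts in the long libraries, against 105, 54 and 111 counts in the short libraries. Both have a locus and met the same count limits as the short-only members. No gene of either list was at 0 in a pool. Of the defining loci, 0 of 9 for seed and 1 of 7 for flower, PISTILLATA, were among the listed genes. The part of other tissues in the results was not tested.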

How the data were processed

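RNA-seq libraries of silique walls from a long-silique and a short-silique pool, 3 each, were compared, grouped by their titles. After filtering, mapping was to the Darmor reference with uniquely mapped reads used, per the series design text. The sources used here do not give an aligner or a release. The submitters' processing notes list DESeq2 and edgeR but no versions of them. The authors deposited whole read counts per gene, which are not normalized. The deposited FPKM divide those counts by transcript length and library size. The deposited log2 fold changes and the p-values and FDR are the authors' own comparison and served here only for the direction of non-members. Adding 0.1 to the mean FPKM of each pool gave the deposited log2 fold changes to a median difference of 0.00504.

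The table holds 3248 genes, all with an FDR of at most 0.0499, and 59362 blank rows, which were left out. Library totals were recovered as count divided by FPKM and span, from genes of 200 counts and 5 FPKM or more, taking the 95% quantile and then the median of genes no more than 0.5% from it. CPM use these totals. Dividing them by the FPKM gives each gene's transcript length, with the rounding of the FPKM as its error.

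Members follow the count rule given in the report, and clusters are members within 100 kb. Members, lists, keywords and comparisons were chosen with earlier results of these data known. Since the same counts chose the members, no test was planned or run. The genes described in full are the 8 of each direction with the highest mean CPM, all members in clusters, all outside the unknown keyword classes, and the shortest and longest. Intervals are exact (Clopper-Pearson) at 95%, and floors are 3 counts. Both cover counting error only, since reads without molecular identifiers are not independent molecules. The intervals do not allow for the selection of members on the same counts. Recovery of totals and members was checked on simulated data. Alternatives were other count limits, distances and scalings, and leaving out each library. Python 3.11.15, pandas 2.3.3, scipy 1.17.1 and matplotlib 3.10.9 were used.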

Additional observations from a re-analysis of the deposited data

How the results depend on the processing

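The number of members follows the count limits. With a minimum of 5 counts there were 40 long-only and 175 short-only genes, with a median level of 0.590 CPM and 106 with a description. With a minimum of 20 counts there were 7 and 53, with a median of 1.90 CPM, 21 on random or unplaced sets and 26 with a description. With 0 counts in the opposite pool there were 7 and 45, with 16 on random sets and 29 with a description, and with at most 10 counts there 37 and 151, with 97 with a description. Fewer or more genes then pass by construction. Leaving out 1 library gave 18 to 30 long-only and 106 to 122 short-only genes, a median level of 0.841 to 1.07 CPM against 1.12, and 17 to 26 genes in clusters. Joining members within 500 kb put 25 genes in clusters. The median level was 97.1 CPM when scaled to the sums of the listed genes, and 2.01 in the authors' FPKM. The median span of 1246 bases became 575 bases as implied transcript length, and was 1113 to 1362 bases under the other count limits. Of 71 alternatives, 45 moved a count or median span by less than 1.5 times, or the level by less than 0.169 CPM, the SD between libraries. No paired analysis was possible because no result comes from a test. Depth limits every member: most rest on fewer than 100 counts.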

Other observations

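A few places were picked out after their values were seen. BnaA06g20700D, a short-only member, had 0, 1 and 0 counts in the long libraries, against 25, 13 and 33 counts in the short libraries. The listed gene BnaA06g20680D, 26238 bases away with 1 model between, shows the opposite, with 23, 25 and 0 counts in the long libraries, against 0 in every short library. It carries the recurring text "hypothetical protein 27.t00116" and missed the rule because 1 long library had no read. BnaC06g00400D, a short-only member with 3, 0 and 0 counts in the long libraries, against 84, 89 and 86 counts in the short libraries, lies 328 bases from BnaC06g00390D, described as the transcription factor WRKY7. That neighbour had 84, 128 and 104 counts in the long libraries, against 27, 39 and 46 counts in the short libraries, so 2 adjoining models went opposite ways.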
